A study of Mus musculus with 8 samples.

Results

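The unfolded protein response (UPR) is the program by which a cell adjusts to unfolded proteins in the endoplasmic reticulum (ER). Its 10 core genes were chosen by symbol from the deposited gene table. They were the sensors *Ern1*, *Eif2ak3* and *Atf6*, the transcription factors *Xbp1*, *Atf4* and *Ddit3*, the chaperones *Hspa5*, *Hsp90b1* and *Dnajb9*, and the degradation gene *Herpud1*. All 10 passed the expression filter (1 TPM or more in any library) and were thus 10 of 20187 genes tested and of 55357 deposited. The table held 11 rows with these symbols, because *Ddit3* has a pair of rows. The second *Ddit3* row (ENSMUSG00000116429) was listed at 0 in every library and was not tested.

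RNA was from germ cell preparations of 15-day C57BL/6 males, with 1 library per mouse. Controls (n = 4) were *Mgat2*[F/F], and mutants (n = 4), termed cKO, were *Mgat2*[F/F]:*Stra8*-iCre. Males of both genotypes were homozygous for floxed *Mgat2*, so that only the cKO carried a transgene, and no group with *Stra8*-iCre and unfloxed *Mgat2* was analysed here. *Stra8*-iCre is expressed in spermatogonia soon after birth, and Sertoli and other somatic cells of the tubule keep their floxed alleles. The tubules were dissociated with collagenase, trypsin and DNase, and no sort by cell surface marker was described. The question was whether loss of MGAT2, the Golgi enzyme that commits N-glycans to the branched complex form, is accompanied by more UPR transcripts.

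In the UPR, 3 sensors in the ER membrane start 3 arms. IRE1alpha, the product of *Ern1*, is an endonuclease that splices the mRNA of *Xbp1*, and spliced XBP1 drives genes of folding and degradation. PERK, the product of *Eif2ak3*, phosphorylates eIF2alpha, which lowers translation in general but favours translation of ATF4, an activator of *Ddit3* (CHOP). ATF6 moves to the Golgi, is cut there by site-1 and site-2 proteases, and activates chaperone genes such as *Hspa5* (BiP). Splicing of *Xbp1*, translation of *Atf4* and cleavage of ATF6 are not read by gene-level transcript counts, whereas the target genes of all arms are. MGAT2 acts in the Golgi, after the calnexin and calreticulin cycle has used immature N-glycans to monitor folding in the ER.

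The binding sites through which ER stress acts on these genes were searched in the promoters of the members, from 250 bases before to 50 bases after the start of the canonical transcript (GENCODE M39, GRCm39). The ER stress response element (ERSE), spelled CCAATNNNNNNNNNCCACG, was found on either strand in 27 of 21770 promoters of protein-coding genes (0.124%), among them those of *Hspa5* and *Hsp90b1*. The related ERSE-II, spelled ATTGGNCCACG, was found in 15 promoters (0.0689%), among them that of *Herpud1*. The core of the ATF4 element, TGATGNAA, was found in 837 promoters (3.84%), with *Ddit3* and *Herpud1* among the members. The core of the XBP1 element, TGACGTGG, was found in 157 promoters (0.721%) and in 0 of the 10 members. The sites follow, since these 4 genes are widely used as transcript readouts of the response. They are written 5′ to 3′ on the strand of the gene, with the match in capitals.

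*Hspa5* ERSE, chr2:34662032-34662060, plus strand: cttcaCCAATCGGAGGCCTCCACGacggg
*Hsp90b1* distal ERSE, chr10:86541497-86541525, minus strand: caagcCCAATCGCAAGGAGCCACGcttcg
*Hsp90b1* proximal ERSE, chr10:86541392-86541420, minus strand: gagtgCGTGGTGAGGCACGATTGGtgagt
*Ddit3* ATF4 element core, chr10:127126356-127126373, plus strand: aaacaTTGCATCAtcccc
*Herpud1* ATF4 element core and ERSE-II, chr8:95112915-95113021, plus strand: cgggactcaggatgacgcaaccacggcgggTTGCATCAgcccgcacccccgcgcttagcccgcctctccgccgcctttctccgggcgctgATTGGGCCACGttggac

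The *Hspa5* element lay 67 to 49 bases before the transcript start. *Hsp90b1* carried an element at 142 to 124 bases before the start and another, in the opposite direction, at 37 to 19 bases before it. In *Herpud1*, ERSE-II lay 32 to 22 bases before the start and the ATF4 core, read on the opposite strand, 92 to 85 bases before it. The ATF4 core of *Ddit3* lay 199 to 192 bases before the start, also on the opposite strand. ERSE and ERSE-II share their flanking pentamers, up to strand, but differ in their spacing and order, and no site of a member matched both. The sites of *Hspa5*, *Hsp90b1* and *Ddit3* overlapped annotated exons of other transcripts or genes. A match describes the sequence and no binding was measured.

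The libraries held 12584726 to 15907505 expected counts in controls and 14069373 to 15572196 in cKO. A floor of 3 counts was thus worth 0.189 to 0.238 CPM, counts scaled to library size, far below every member, and this floor covers counting error only. The deleted gene, *Mgat2* (ENSMUSG00000043998, chr12:69230931-69233544), was at 69.8, 31.8, 64.3 and 59.8 normalized CPM in control libraries 1 to 4. It was at 35.2, 20.1, 37.6 and 16.0 CPM in cKO libraries 1 to 4. Control 2 lay below cKO 1 and cKO 3, so that the genotypes overlapped. The log2 fold change was -1.05 (SE 0.36, edgeR adjusted p = 0.470), and DESeq2 gave -1.06 with an adjusted p of 0.0252. *Mgat2* was therefore lower in cKO in the mean but called by DESeq2 alone, and 304 bases (11.6%) of its exon also lie in *Rpl36al* on the opposite strand.

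Germ cell markers were present in all libraries, with a summed level of 1262 to 1637 CPM over 6 genes in controls and 1293 to 1465 CPM in cKO. *Sycp3*, a synaptonemal complex protein, was at 247 and 231 CPM, *Dazl* at 548 and 636 CPM and *Mael* at 248 and 183 CPM in control and cKO means. Sertoli cell markers summed to 4617 to 5344 CPM over 7 genes in controls and 4742 to 5594 CPM in cKO, and 0 of the 7 were at 0. Most of that sum was *Clu*, at 3825 CPM in controls and 4054 CPM in cKO, with *Cldn11* at 508 and 558 CPM and *Wt1* at 276 and 286 CPM. Sums over lists of different genes do not rank cell types by their share of the RNA. Leydig cell markers summed to 27.4 to 59.1 CPM over 5 genes, of which *Insl3*, *Star* and *Hsd3b1* were the most abundant by TPM. Peritubular, vascular and immune markers summed to 464 to 876 CPM over 8 genes, with *Acta2*, *Myh11* and *Cnn1* the most abundant by TPM. UPR genes are expressed in most cell types, so the levels below belong to a mixture and were not assigned to germ cells. In bulk RNA, fewer cells of a type and less RNA per cell cannot be told apart.

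The libraries numbered 1, of both genotypes, stood apart from the others. The 10 immediate-early and heat shock genes, a group known to respond when tissue is dissociated, were lowest in library 1 in both genotypes for 10 of 10 genes. Their summed level was 1195 CPM in control 1 against 3601 to 3984 CPM in the other controls, and 1237 CPM in cKO 1 against 3646 to 4337 CPM in the other cKO libraries. All 8 pachytene spermatocyte markers, with *Ldhc*, *Hspa2* and *Piwil1* the most abundant by TPM, were highest in library 1 in both genotypes. They summed to 2412 CPM in control 1 against 678 to 1115 CPM in the other controls, and to 816 CPM in cKO 1 against 324 to 389 CPM in the others. Among all genes tested, 24.8% were lowest and 22.2% were highest in library 1 of both genotypes. The 2 libraries share a number in their titles and were not described as a batch. This pattern was noticed after the values were seen, and each member is therefore given below with and without these 2 libraries.

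Loss of *Mgat2* was not accompanied by a detectable change of UPR transcripts. Of the 10 members, 0 passed the edgeR quasi-likelihood test at an adjusted p of 0.05, where 0.0396% of all genes tested did (8 genes, all lower in cKO). DESeq2 called 0 members and 1.50% of all genes. At an unadjusted p of 0.05, 0 members and 8.90% of all genes passed. In 0 members did the 4 cKO values all lie on one side of the 4 control values, as they did for 5.50% of all genes. With few genes called in all, the count of 0 among 10 adds little, and the intervals below say more about the size of a change that these libraries leave possible. The log2 fold change, cKO over control, was positive for 7 members and negative for 3, with a median of 0.04. Of the 7, *Atf4*, *Xbp1*, *Hsp90b1* and *Dnajb9* turned negative when a single library was left out, and *Xbp1* and *Hsp90b1* also on the TPM scale. For all genes tested, the median was 0.01 and 51.3% were positive.

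**Figure D1:**
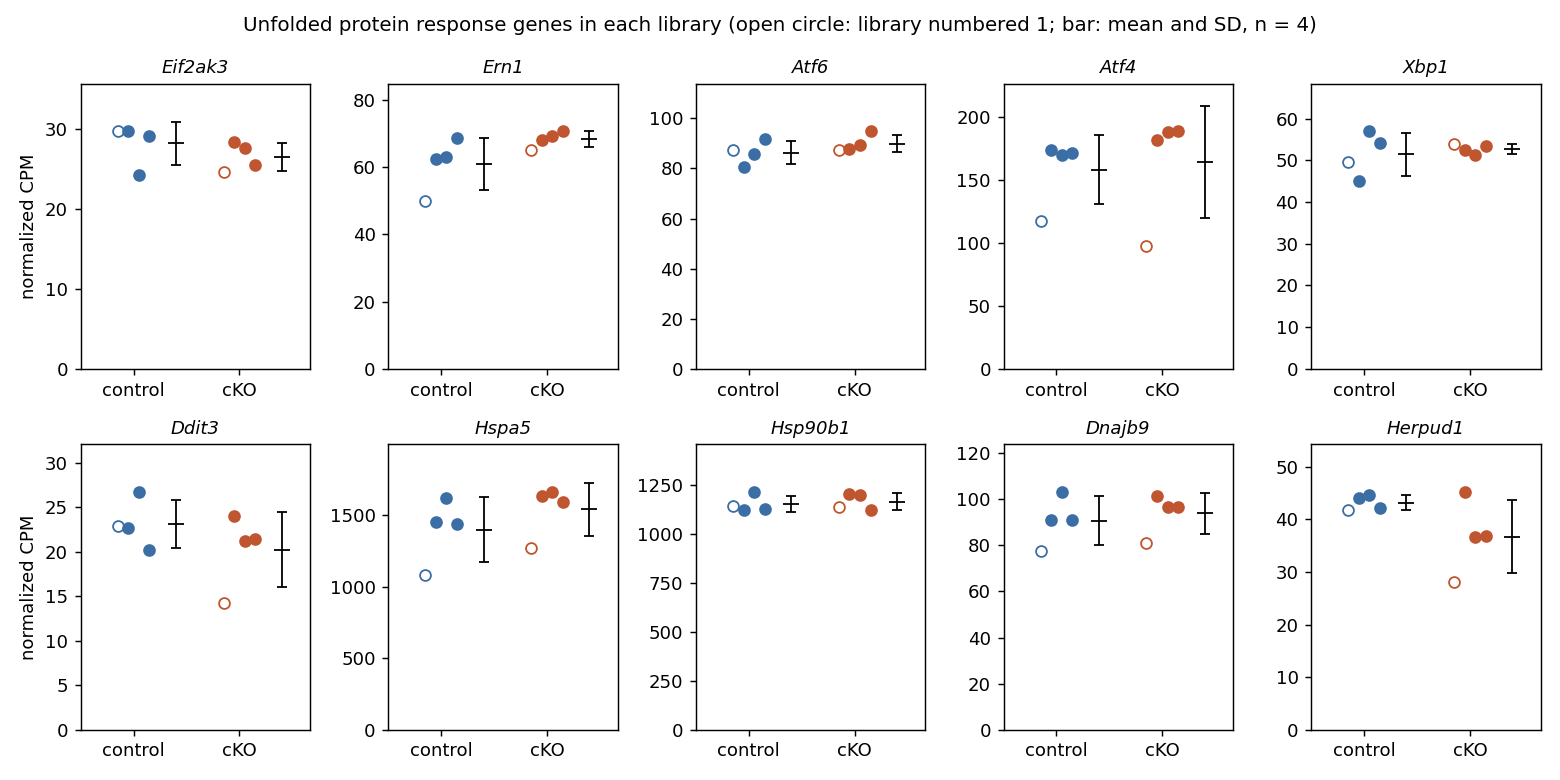
Normalized CPM (vertical axes, from 0) of the 10 UPR genes in each of the 4 control and 4 cKO libraries, 1 point per library in the order of their numbers, with open circles for the libraries numbered 1 and the mean ± SD (n = 4) as a bar. The points of the 2 genotypes overlap in every panel, and the open circle is the lowest point of both genotypes for *Ern1*, *Atf4*, *Hspa5*, *Dnajb9* and *Herpud1*.

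Among the sensors, *Ern1* (ENSMUSG00000020715, chr11:106283818-106378686) was measured at 49.9, 62.2, 62.9 and 68.5 CPM in controls 1 to 4. In cKO libraries 1 to 4 it was at 65.1, 68.1, 69.1 and 70.6 CPM. The cKO values were high and close together, but control 4 lay above cKO 1 and cKO 2. This was a log2 fold change of 0.16 (SE 0.10), with a 95% interval of 0.967- to 1.299-fold and an edgeR adjusted p of 0.647. Control 1 was the lowest library, and without both libraries numbered 1 the log2 fold change was 0.10 (SE 0.08, adjusted p = 0.629).

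*Eif2ak3* (ENSMUSG00000031668, chr6:70821461-70882235), which encodes PERK, was at 29.7, 29.7, 24.2 and 29.1 CPM in controls and at 24.6, 28.3, 27.6 and 25.5 CPM in cKO. The lowest value of all belonged to control 3, and the ranges overlapped over most of their length. *Eif2ak3* had a log2 fold change of -0.09 (SE 0.11, adjusted p = 0.844), with an interval of 0.800- to 1.11-fold. Without both libraries numbered 1 this was -0.03 (SE 0.11, adjusted p = 0.958). Its expected counts were not whole in 3 libraries, since some reads were shared with other features.

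*Atf6* (ENSMUSG00000026663, chr1:170532026-170696208), the sensor that is itself a membrane-bound transcription factor, was at 87.2, 80.8, 85.6 and 91.7 CPM in controls and at 87.4, 87.9, 89.5 and 94.9 CPM in cKO. These were among the tightest values of the group, and controls 1 and 4 lay within or near the cKO range. *Atf6* had a log2 fold change of 0.06 (SE 0.07, adjusted p = 0.837), with an interval of 0.937- to 1.16-fold, and 0.08 (SE 0.07, adjusted p = 0.710) without both libraries numbered 1.

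Of the transcription factors, *Xbp1* (ENSMUSG00000020484, chr11:5470606-5483027) was at 49.6, 45.1, 57 and 54.1 CPM in controls and at 54.0, 52.4, 51.3 and 53.4 CPM in cKO. All 4 cKO values lay inside the control range. *Xbp1* had a log2 fold change of 0.04 (SE 0.09, adjusted p = 0.939), with an interval of 0.895- to 1.18-fold. It was -0.02 without control 2 and 0.01 (SE 0.09, adjusted p = 0.991) without both libraries numbered 1. Spliced and unspliced mRNA contribute alike to these counts. *Xbp1* shares 1526 exon bases (22.0%) with *Ccdc117* on the opposite strand, which was at 118 CPM in controls and 102 CPM in cKO (log2 fold change -0.21, adjusted p = 0.667).

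*Atf4* (ENSMUSG00000042406, chr15:80139372-80141745) was at 117, 174, 170.0 and 172 CPM in controls and at 97.5, 182, 188 and 189 CPM in cKO. In both genotypes library 1 was far below the other 3, which agreed closely. The mean was 158 ± 27.4 CPM in controls and 164 ± 44.7 CPM in cKO (SD, n = 4). Its log2 fold change was 0.05 with the largest standard error of the group, 0.23, an interval of 0.710- to 1.52-fold and an adjusted p of 0.972. It was -0.07 without control 1 and 0.24 without cKO 1. Without both libraries numbered 1, the 3 cKO values all lay above the 3 control values, and the log2 fold change was 0.12 (SE 0.06, unadjusted p = 0.0617, adjusted p = 0.399). In that comparison *Atf4* was the 1 member of 10 with the genotypes apart, beside 18.7% of all genes tested, while 0 members and 4.24% of all genes passed the adjusted threshold.

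*Ddit3* (ENSMUSG00000025408, chr10:127124268-127132163) encodes CHOP, the factor that links lasting ER stress to cell death. It was at 22.9, 22.7, 26.7 and 20.2 CPM in controls and at 14.3, 24.1, 21.2 and 21.4 CPM in cKO. The cKO library numbered 1 was the lowest of all, and the other 3 cKO values lay inside the control range. Its log2 fold change was -0.19 (SE 0.16, adjusted p = 0.733), with an interval of 0.688- to 1.11-fold, and -0.07 (SE 0.12, adjusted p = 0.886) without both libraries numbered 1. *Ddit3* shares 3576 of its exon bases (64.1%) with *Mars1* on the opposite strand. Since the libraries were not stranded, the split of those reads between both genes rests on the authors' quantification. The expected counts of *Ddit3* and of *Mars1* were whole in every library. *Mars1*, a tRNA synthetase gene, was at 116 ± 14.5 CPM in controls and 124.8 ± 22.9 CPM in cKO (SD, n = 4; log2 fold change 0.11, adjusted p = 0.830).

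The chaperone *Hspa5* (ENSMUSG00000026864, chr2:34661982-34668880), the most used transcript readout of ER stress, was the most abundant member. It was at 1084, 1450, 1617 and 1440 CPM in controls 1 to 4 and at 1267, 1632, 1661 and 1594 CPM in cKO 1 to 4. Library 1 was the lowest of each genotype, and control 3 lay above cKO 1 and cKO 4. The means were 1398 ± 224 and 1538 ± 183 CPM (SD, n = 4). The difference was 0.14 on the log2 scale (SE 0.12, adjusted p = 0.767), with an interval of 0.911- to 1.33-fold. Without both libraries numbered 1 it was 0.12 (SE 0.06, unadjusted p = 0.0524, adjusted p = 0.368). *Hspa5* shares 2457 exon bases (44.2%) with *Rabepk* on the opposite strand, but *Rabepk* was at only 21.5 CPM in controls and 16.4 CPM in cKO.

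*Hsp90b1* (ENSMUSG00000020048, chr10:86526073-86541446), which encodes the ER chaperone GRP94, was at 1144, 1126, 1217 and 1131 CPM in controls and at 1138, 1206, 1201 and 1122 CPM in cKO. Its range was narrow in both genotypes, and library 1 did not stand out in either. Its log2 fold change was 0.02 (SE 0.06, adjusted p = 0.970), with an interval of 0.918- to 1.11-fold, the narrowest of the group. Leaving out both libraries numbered 1 gave 0.02 (SE 0.06, adjusted p = 0.924). Its expected counts were not whole in any of the 8 libraries. Of its exon bases, 84 are shared with *Gm15344* and 133 with *Gm54730*, both on the same strand and both in the deposited table.

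*Dnajb9* (ENSMUSG00000014905, chr12:44252341-44257171), a co-chaperone of BiP and a target of spliced XBP1, was at 77.4, 91.2, 103 and 91.2 CPM in controls and at 81.1, 101, 96.8 and 96.7 CPM in cKO. Both extremes of the group were control libraries. Between genotypes the log2 fold change was 0.05 (SE 0.10, adjusted p = 0.917), with an interval of 0.892- to 1.20-fold, and without control 1 the log2 value was -0.02. Without both libraries numbered 1 it was 0.04 (SE 0.07, adjusted p = 0.856).

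*Herpud1* (ENSMUSG00000031770, chr8:95113022-95123141) encodes a membrane protein of the complex that extracts misfolded proteins for degradation. It was at 41.8, 44.1, 44.6 and 42.1 CPM in controls and at 28.1, 45.2, 36.6 and 36.9 CPM in cKO. The controls were close together, 3 cKO libraries lay below all of them, and cKO 2 was the highest of all 8. Between genotypes the log2 fold change was -0.23 (SE 0.13), with the lowest p of the group (unadjusted p = 0.0910, edgeR adjusted p = 0.620) and an interval of 0.702- to 1.03-fold. Without both libraries numbered 1 it was -0.14 (SE 0.10, adjusted p = 0.588). *Herpud1* and *Hspa5* thus had opposite signs, and the interval of each included no change.

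**Figure D2:**
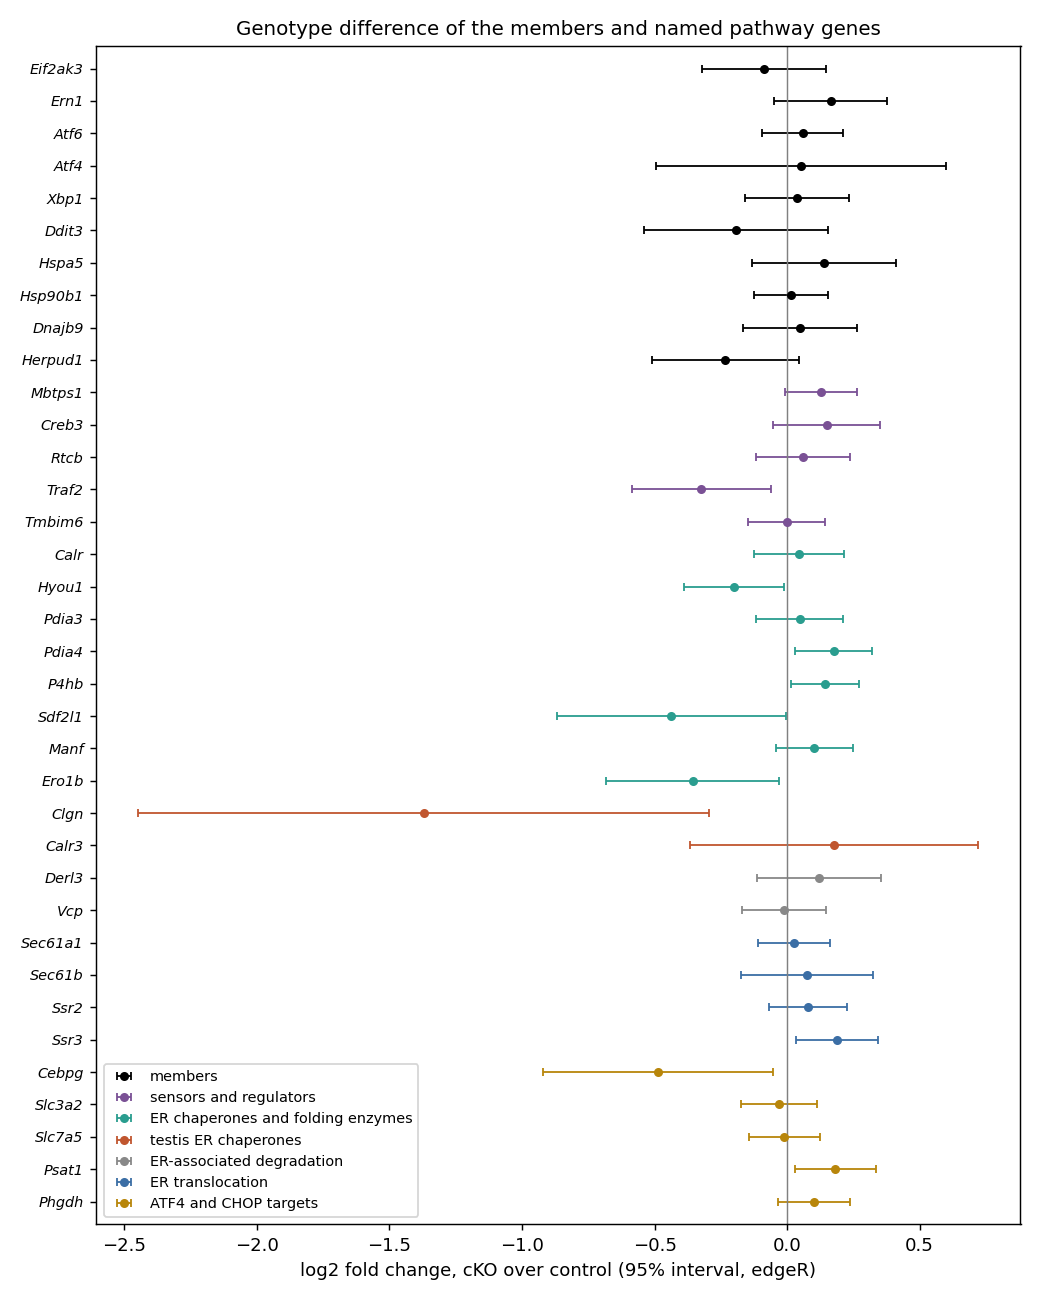
Log2 fold change, cKO over control (horizontal axis), with its 95% interval from edgeR (4 control and 4 cKO libraries) for the 10 members, in black, and the named genes of the 6 other pathway lists, in colours. The intervals of all 10 members cross 0, and *Clgn*, at -1.37, lies farthest from it.

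The upper ends of the members' intervals bound the rise that these libraries leave possible for each gene taken alone. They ran from 1.03-fold for *Herpud1* to 1.52-fold for *Atf4*, and *Hspa5* was next to *Atf4* with 1.33-fold. The lower ends ran from 0.688-fold for *Ddit3* to 0.967-fold for *Ern1*. A modest rise of *Hspa5*, *Ern1* or *Atf4* was thus not detectable in this fit, which has genotype as its only term. The intervals do not show that the genotypes were alike. Without both libraries numbered 1, the SE was 0.06 instead of 0.23 for *Atf4*, 0.06 instead of 0.12 for *Hspa5* and 0.08 instead of 0.10 for *Ern1*. None of these genes was called there.

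On the TPM scale, which is set per transcript length and allows genes to be compared, the order over all 8 libraries was led by both large chaperones. *Hspa5* averaged 970.4 TPM and *Hsp90b1* 738 TPM, and their ranges overlapped, with *Hspa5* above *Hsp90b1* in 7 of 8 libraries. *Atf4* followed at 173 TPM and differed from its neighbours on both sides in every library. *Dnajb9* at 66.3, *Ddit3* at 60.2, *Xbp1* at 52.2 and *Herpud1* at 45.0 TPM formed a run in which each range overlapped the next. The sensors were lowest, with *Ern1* at 20.3 and *Atf6* at 19.9 TPM, not separable from each other, and *Eif2ak3* at 11.6 TPM below both in all 8 libraries. TPM of *Eif2ak3* moved apart from its CPM, with 11.3 TPM in control 1 and 17.3 TPM in control 2, both at 29.7 CPM. Control 3 was lowest among controls on both scales, at 9.14 TPM and 24.2 CPM. TPM also depends on the transcript isoforms that the quantification assigned, and their part here was not tested.

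The members differed in how far library 1 lay from the other libraries. Of the 10 genes, 5 were lowest in library 1 of both genotypes, beside 24.8% of all genes tested. *Atf4* in library 1 was at 0.682 of the mean of libraries 2 to 4 in controls and at 0.522 in cKO. *Hspa5* was at 0.722 and 0.778, *Dnajb9* at 0.813 and 0.825, and *Ern1* at 0.773 and 0.939. *Ddit3* was at 0.642 and *Herpud1* at 0.712 in cKO, but at 0.986 and 0.957 in controls. *Hsp90b1*, *Xbp1*, *Atf6* and *Eif2ak3* were within 0.909 to 1.07 in both genotypes.

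Of the 21 textbook targets of ATF4 and CHOP tested, 5 were lowest in library 1 of both genotypes and 3 were highest, shares that are not above those of all genes tested (24.8% and 22.2%). The 5 were *Atf3*, *Ppp1r15a*, *Cebpb*, *Bbc3* and *Bcl2l11*, named for this after their values were seen. *Atf3*, a stress-induced transcription factor, was at 15.9, 109.5, 104.8 and 85.1 CPM in controls and at 17.4, 135, 91.2 and 100.5 CPM in cKO. *Ppp1r15a* (GADD34), which directs dephosphorylation of eIF2alpha, was at 47.8 CPM in control 1 and 51.0 CPM in cKO 1, against 109 to 119 and 100.1 to 116 CPM in the others. *Cebpb* was at 9.10 and 13.2 CPM in library 1, against 22.6 to 25.5 and 25.1 to 26.7 CPM. Library 1 was thus low for *Atf4* and for the immediate-early genes alike, and the part of tissue handling in the levels of the members was not tested. The genotype difference of *Atf4*, given above without these libraries, was positive with all 8 libraries and without both. It was negative when control 1, cKO 2, cKO 3 or cKO 4 alone was left out.

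**Figure D3:**
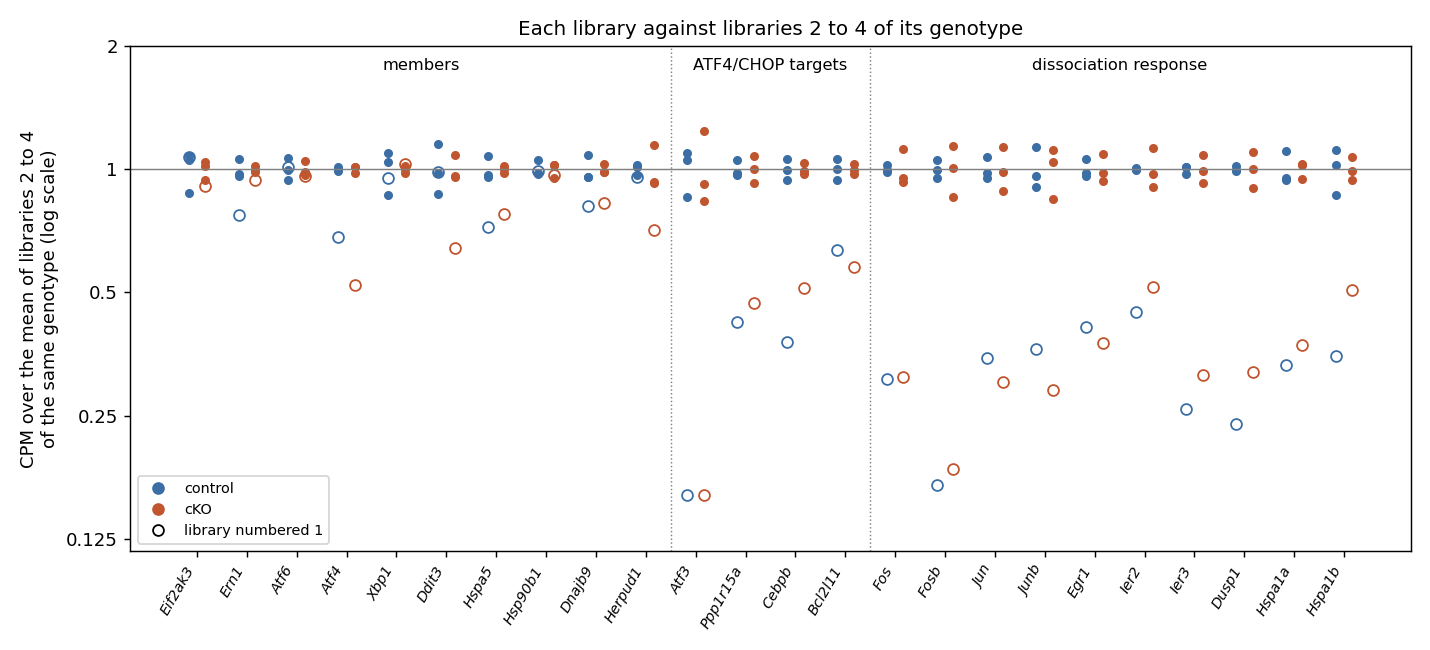
CPM of each library divided by the mean of libraries 2 to 4 of its genotype (log scale), for the 10 members, 4 targets of ATF4 and CHOP chosen because they were low in library 1, and 10 immediate-early and heat shock genes (dissociation response). The open circles, libraries numbered 1, lie below the filled ones for all 10 dissociation genes, for the 4 targets and, among the members, most clearly for *Atf4* in both genotypes.

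Outside the 10 members, 91 further genes of ER protein handling were examined in 6 lists, of which 86 passed the expression filter. *Ern2*, *Pdilt*, *Chac1*, *Slc7a11* and *Vldlr* did not pass the filter. The most abundant genes of a list are those with the highest mean control TPM. By edgeR 0 of the 86 were called, and by DESeq2 0, beside 11 with an unadjusted p under 0.05 in edgeR, 5 higher and 6 lower in cKO. Of all genes tested, edgeR called 0.0396% and DESeq2 1.50%, and 8.90% had an unadjusted p under 0.05 in edgeR. Among the 86, the log2 fold change was positive for 57 genes and negative for 29, with a median of 0.04. In 5 of the 86 all cKO values lay above all control values, and in 0 below. Of all genes tested, 498 lay above and 612 below, 5.50% in both directions together.

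The 5 were spread over 4 lists and differed by small amounts. *Pdia4*, an ER disulfide isomerase, was at 213, 244, 224 and 236 CPM in controls and at 249.6, 251, 273 and 263 CPM in cKO, a log2 fold change of 0.18 (SE 0.07, adjusted p = 0.478). *P4hb*, the archetypal protein disulfide isomerase, was at 323 to 338 CPM in controls and 358 to 378 CPM in cKO (log2 fold change 0.14, SE 0.06, adjusted p = 0.519). *Ssr3*, a subunit of the translocon-associated complex, was at 151 to 175 and 181 to 204 CPM (0.19, SE 0.07, adjusted p = 0.469). *Mbtps1*, the site-1 protease that cuts ATF6, was at 233 to 258 and 265 to 269 CPM (0.13, SE 0.06, adjusted p = 0.575). *Psat1*, a serine synthesis enzyme and ATF4 target, was at 157 to 186 and 187 to 202 CPM (0.18, SE 0.07, adjusted p = 0.478). None of the 5 passed the adjusted threshold in edgeR or DESeq2.

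In the list of sensors and regulators, 18 of 19 genes were tested, 12 positive and 6 negative, with a median of 0.03. Its most abundant genes besides *Tmbim6* (log2 fold change 0.00) were *Rtcb*, the ligase that joins spliced *Xbp1* (0.06), and *Creb3*, an ER-bound factor related to ATF6 (0.15). *Traf2*, an adaptor of IRE1alpha, was at 34.5 ± 3.84 CPM in controls and 27.6 ± 3.47 CPM in cKO (SD, n = 4; log2 fold change -0.32, SE 0.12, adjusted p = 0.467).

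Of the 19 ER chaperones and folding enzymes, 13 were positive and 6 negative, with a median of 0.04. The most abundant were *Calr*, *Manf* and *Pdia3*, with log2 fold changes of 0.04, 0.10 and 0.05. Of the 6 negative genes, 3 had an unadjusted p under 0.05, as did 3 of the 13 positive ones. The positive ones were *Pdia4*, *P4hb* and *Txndc5*, the last named after its value was seen, and the negative ones *Hyou1*, *Sdf2l1* and *Ero1b*. *Hyou1*, a large chaperone related to BiP, was at 463 ± 54.6 CPM in controls and 402 ± 24.0 CPM in cKO (SD, n = 4; log2 fold change -0.20, adjusted p = 0.537). *Sdf2l1*, a component of the BiP cycle, was at 35.0 ± 10.9 and 25.9 ± 3.56 CPM (-0.44, adjusted p = 0.560), and the oxidase *Ero1b* was at 110.0 ± 23.8 and 85.9 ± 10.0 CPM (-0.36, adjusted p = 0.526). In these 3 negative genes control 1, the library with most pachytene transcripts, was the highest of the 8. Without both libraries numbered 1, the log2 fold changes of *Hyou1*, *Sdf2l1* and *Ero1b* were -0.16, -0.28 and -0.28 (edgeR adjusted p = 0.137, 0.250 and 0.198). Those of *Pdia4*, *P4hb* and *Txndc5* were 0.16, 0.12 and 0.15 (edgeR adjusted p = 0.161, 0.307 and 0.347). The part of pachytene cells in these values was not tested.

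Of the chaperones of male germ cells, *Clgn* and *Calr3* were tested. *Clgn* encodes calmegin, a lectin chaperone of spermatocytes and spermatids that is required for fertility. It was at 384, 155, 224 and 125.1 CPM in controls and at 139, 65.7, 76.2 and 62.5 CPM in cKO. Only cKO 1 reached into the control range, and within each genotype library 1 was highest. The log2 fold change was -1.37 (SE 0.45, unadjusted p = 0.0201, edgeR adjusted p = 0.467), and without both libraries numbered 1 it was -1.31 (adjusted p = 0.117). *Calr3*, of the opposite sign, was low, at 3.82 CPM in controls and 4.32 CPM in cKO (0.18). The pachytene markers were lower in the same direction, with 8 of 8 log2 fold changes negative and a median of -1.80, of which 0 were called by edgeR (3 at an unadjusted p of 0.05) and 2 by DESeq2. Without both libraries numbered 1, edgeR called 3 of the 8, *Pgk2*, *Spag6l* and *Acr*. The part of a smaller share of pachytene cells in the values of *Clgn* was not tested.

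Among 17 genes of ER-associated degradation, 8 were positive and 9 negative, with a median of -0.01 and 0 past an unadjusted p of 0.05. *Vcp*, the ATPase that extracts substrates, and *Derl3*, among its most abundant genes, had log2 fold changes of -0.01 and 0.12. Of 9 genes of ER translocation, 8 were positive, with a median of 0.07. Their summed level was 1356 to 1398 CPM in controls and 1405 to 1490 CPM in cKO, without overlap. The sums of the sensors and regulators did not overlap either, at 1429 to 1486 CPM in controls and 1487 to 1525 CPM in cKO. The sums of the members and of every other pathway list did overlap. These sums are descriptions, for which no test was made and no background share was computed. *Ssr2*, *Sec61a1* and *Sec61b*, the most abundant genes of ER translocation, had log2 fold changes of 0.08, 0.03 and 0.08.

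Of the 21 targets of ATF4 and CHOP tested, 15 were positive and 6 negative, with a median of 0.10. The amino acid transporter subunits *Slc7a5* and *Slc3a2* had log2 fold changes of -0.01 and -0.03, and *Phgdh*, which opens serine synthesis, 0.10. *Cebpg*, a partner of ATF4, was at 57.6 ± 18.3 CPM in controls and 41.1 ± 3.50 CPM in cKO (SD, n = 4). Its log2 fold change was -0.49 (SE 0.19, edgeR adjusted p = 0.519). Control 1 was again the highest library, and without both libraries numbered 1 the log2 fold change was -0.32 (SE 0.10, edgeR adjusted p = 0.0880).

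**Figure D4:**
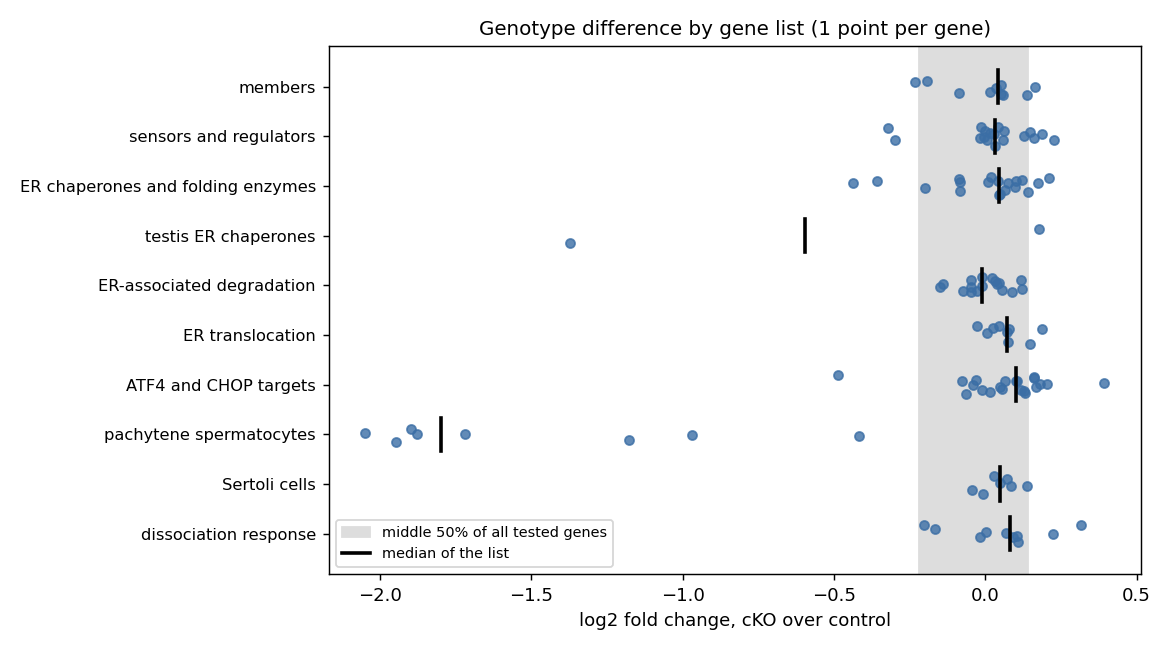
Log2 fold change, cKO over control (horizontal axis), of each tested gene of the members, the 6 other pathway lists and 3 further lists, 1 point per gene with the list's median as a bar and the middle 50% of all tested genes shaded (-0.22 to 0.14). Most points of the members and pathway lists lie in or near the shaded range, whereas the pachytene spermatocyte markers have a median of -1.80.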

How the data were processed

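The authors prepared unstranded libraries from polyadenylated RNA and sequenced them with paired ends. Reads were aligned to mm39 (GRCm39) with STAR 2.7.9a and quantified with RSEM 1.3.3 against Ensembl 105; tools and versions are those of the submitters' processing notes, which also name DESeq2 1.38.3. The deposited expected counts are RSEM estimates per gene without normalization between libraries, and 15.2% of those above 0 were not whole. The deposited TPM values are scaled within each library by transcript length and depth.

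Expected counts were rounded, and genes that reached 1 TPM in any library were kept. Genotypes (4 control, 4 cKO, groups from the labels, 1 mouse per library) were compared with edgeR 4.0.16 (TMM, robust quasi-likelihood fit, genotype as the only term). P-values were adjusted by Benjamini and Hochberg's method across the 20187 genes, and genes under 0.05 are termed called. CPM were normalized with TMM factors. Intervals are 95% intervals from the same fit. Alternatives were DESeq2 1.42.0, limma 3.58.1 (voom, and trend on log2(TPM + 1) or log2(TPM + 0.1)), other scalings and filters, a replicate block, and leaving out each library. Leaving out both libraries numbered 1 was added after the data were seen. The edgeR and DESeq2 fits were also run on simulated counts, drawn independently for each library. These held no shift shared by the libraries numbered 1, so they cannot show how the fits behave under such a shift.

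Named genes were the members, *Mgat2* and, in each pathway list, the 3 most abundant by control TPM, any called by edgeR, DESeq2 or with the block, and any with the genotypes apart, and of each marker list the 3 most abundant; 1 gene that this rule names is not reported here. The members and lists were chosen with earlier results of these data known. Positions, exon overlaps and promoters came from GENCODE M39, not from Ensembl 105. R 4.3.3 and Python 3.11.15 were used.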

Additional observations from a re-analysis of the deposited data

Results flagged for a closer look

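In 76 groups of 4 values (38 genes in each genotype), 5 had 1 library whose gap to the nearest other exceeded Dixon's 95% critical value. Chance flags about 1 in 20 groups, and 4 of the 5 were libraries numbered 1. *Hspa5* was lowest in cKO 1, at 1267 CPM against 1594 to 1661 in the other cKO libraries. *Atf4* was lowest in control 1, at 117.3 CPM against 170.0 to 174 in the other controls, and in cKO 1, at 97.45 CPM against 182 to 189. *Eif2ak3* was lowest in control 3, at 24.2 CPM against 29.1 to 29.7. *Pdia3*, an ER disulfide isomerase, was highest in cKO 1, at 572 CPM against 505 to 511.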

How the results depend on the processing

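Members called remained at 0 in all 19 alternatives, where the lowest adjusted p of a member was 0.117. The members' median log2 fold change lay between -0.00303 and 0.0711, and 179 of 190 single values kept their sign. The exceptions were *Hsp90b1* (-0.00482 with either TPM trend) and *Xbp1* (-0.0029 and -0.00281 with the TPM trends), and, with single libraries left out, *Hsp90b1* (-0.00109 to 0.0416), *Xbp1* (-0.0213 to 0.0899), *Dnajb9* (-0.018 to 0.117) and *Atf4* (-0.0666 to 0.236, negative without control 1, cKO 2, 3 or 4). The genes called in all, 8, numbered 302 with DESeq2, 18 with upper-quartile and 17 with library-total scaling, 35 without a filter, 0 with filterByExpr, voom or either TPM trend, 855 without both libraries numbered 1, and 0 to 32 with single libraries left out (24, 2, 0 and 32 without control 1 to 4, 15, 1, 0 and 0 without cKO 1 to 4); the cause was not tested.

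In a fit with a replicate block, 1464 genes were called (162 higher), 7.25% of all genes tested. Called with the block were 7 of the 86 pathway genes tested: *Traf2*, *Hyou1*, *Sdf2l1*, *Ero1b*, *Clgn* (adjusted p = 1.7e-09, lower in cKO for 4 of 4 numbers), *Ssr3* and *Cebpg*. Among the pachytene markers 7 of the 8 were called. Deviations from the genotype means correlated at 0.535, 0.145, 0.0389 and 0.197 for numbers 1 to 4, and on average at -0.0683 between different numbers. Controls 2 and 3 correlated best with a cKO library of another number, so the numbers were not taken to pair mice.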

Other observations

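Spermatogonial markers, a list of 7 genes, were all positive in cKO, with a median log2 fold change of 0.21, and 0 were called by edgeR or DESeq2. The most abundant by TPM were *Uchl1*, *Stra8* and *Dmrt1*, with log2 fold changes of 0.16, 0.20 and 0.14. Their summed level was 670 to 793 CPM in controls and 771 to 985 CPM in cKO, with cKO 1 highest, so that the genotypes overlapped. Of the 7, 1 had an unadjusted p under 0.05.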
